A study of Rattus norvegicus with 36 samples.

Results

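Most of the genes described here encode standing subunits of the proteasome, the protein-cutting machine that breaks down proteins tagged with ubiquitin. Psmd5 and Psmd9 instead assist its assembly, and Psme1 and Psme2 form a cap that interferon raises. The genes were taken as the probes of the rat liver arrays whose name starts with Psma, Psmb, Psmc, Psmd or Psme and a digit, without Psmb8, Psmb9 and Psmb10. The rule found 35 probes among 22523, each for a different gene. Of these, 34 were detected on at least 4 arrays and entered a test over 9314 genes. The remaining probe, Psmc3ip, was detected on 3 arrays and was not tested; its gene is named for a protein that binds Psmc3 and acts in meiosis, and encodes no proteasome subunit. Psmd10, Psmd14, Psme3 and Psme4 were not analysed here. Probes of 32 members were detected on all 36 arrays, that of Psmd8 on 31 and that of Psma3 on 19.

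As background, the proteasome is a barrel of stacked rings. Psma proteins form the outer rings, which gate the entrance, and Psmb proteins form the inner rings, in which Psmb5, Psmb6 and Psmb7 cut proteins. A cap sits on the barrel. Its base holds a ring of ATPases, the Psmc proteins, which unfold proteins, and some Psmd proteins, among them the ubiquitin receptor Psmd4. The lid of the cap holds other Psmd proteins and trims ubiquitin from tagged proteins. Psme1 and Psme2 form another cap that opens the barrel and is raised by interferon. Interferon also raises Psmb8, Psmb9 and Psmb10, which replace the cutting subunits in the immunoproteasome. Cells short of proteasome activity can raise the subunit genes together through the factor Nfe2l1.

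Livers came from 36 male Wistar rats in 8 groups. The rats were vitamin A sufficient (VAS) or had been made deficient (VAD), had their bile duct ligated (BDL) or were sham-operated, and were injected into the peritoneum daily with retinyl palmitate (VITA) or were given vehicle. There were 5 rats in a BDL group and 4 in a sham group, with 1 array per rat. Ligation blocks the outflow of bile and is a model of obstructive cholestasis; deficiency preceded the operation. The sources used here do not give age, dose or the time between operation and sampling.

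Levels are log2 intensities after background correction and quantile normalisation, and a change is the difference of 2 group means on that scale with its standard error (SE). A gene passed the test where limma's two-sided p, adjusted over all 9314 genes, was under 0.05. Whole liver was measured, so fewer cells of a type and less RNA per cell cannot be told apart. Arrays had 29.2% to 38.1% of probes detected, and correlations within groups ran from 0.944 to 0.987. The array of VAD BDL VITA replicate 5 stood apart, with a mean correlation of 0.948 with its own group, while the next lowest array had 0.968. The 9 hepatocyte markers on the array all passed the detection filter, and their summed level was 16.86 to 17.34 over the groups.

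The 3 slides of 12 arrays each differed in the levels of many proteasome genes; the cause was not tested. On slide 3 Psma1, a subunit of the outer ring, lay between 7.36 and 8.44 on all 12 arrays. On slide 1 it lay between 8.90 and 9.48, and on slide 2 between 8.67 and 9.50. No array of slide 3 reached the range of the other slides, in sham and ligated livers alike. The split was already in the raw intensities, except for a small overlap: 234.1 to 439.2 on slide 3, against 480.6 to 1012.6 on slide 1 and 389.1 to 868.3 on slide 2. With the 8 groups in the model, Psma1 was 1.32 (SE 0.10) lower on slide 3 on the log2 scale (limma adjusted p = 8.57e-12).

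Other members differed by slide in both directions. Psmd2, part of the base, fell by 0.53 (SE 0.09), Psmd11 of the lid fell by 0.50 (SE 0.07) and Psma7 of the outer ring fell by 0.40 (SE 0.07) on slide 3. Psma2 was 0.31 (SE 0.06) higher there, and Psmc4 was 0.29 (SE 0.07) higher. Of the 34 members 19 differed by slide, 12 higher and 7 lower on slide 3, where 35% of all genes did. Psma1 was the only member whose slides did not overlap, and 64 of the 9314 genes (0.687%) had that property. Slides hold unequal parts of the groups, so changes are also given within slides, or from a fit that blocks on slide, where these bear on them. Fits without slide 3 rest on fewer arrays: 2 remain in VAS BDL VITA and 2 in VAD sham vehicle. The test of slide was added after the slide pattern had been seen.

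**Figure D1:**
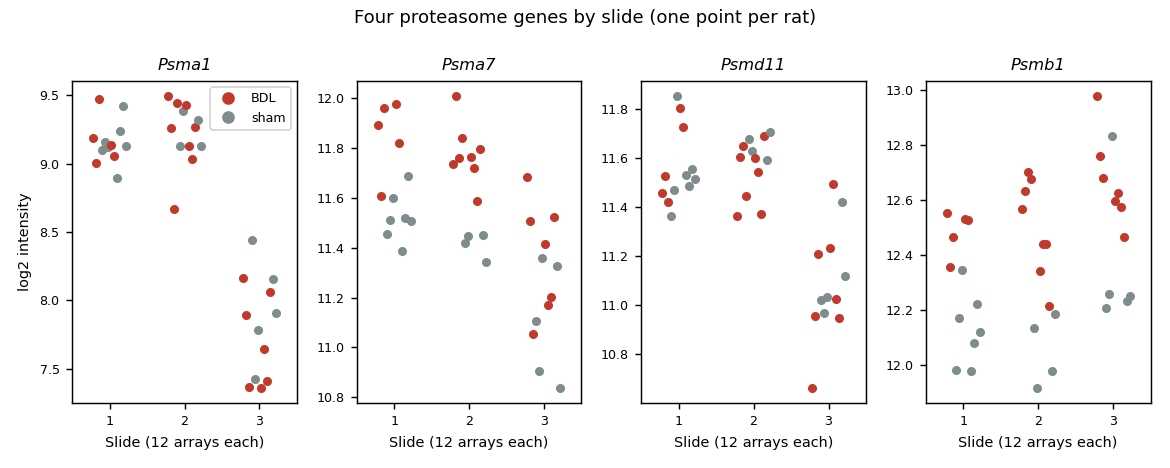
Log2 intensity (vertical axis) of Psma1, Psma7, Psmd11 and Psmb1 by slide (horizontal axis, 12 arrays each), 1 point per rat, with ligated livers in red and sham livers in grey. All 12 Psma1 values of slide 3 lie at or below 8.44 and all values of the other slides at or above 8.67. Psmb1 overlaps between slides and between sham and ligated livers, and was 0.20 (SE 0.06) higher on slide 3 (limma adjusted p = 0.00914).

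Across the 8 groups, the proteasome genes as a set kept close to the same level. The mean over the 34 genes was 10.16 ± 0.07 (SD, n = 4) in VAS sham vehicle and 10.17 ± 0.07 (SD, n = 5) in VAS BDL vehicle. It was 10.13 ± 0.06 (SD, n = 4) in VAD sham vehicle and 10.10 ± 0.07 (SD, n = 5) in VAD BDL vehicle. The other 4 groups had means between 10.13 and 10.18, so the groups overlapped. Within groups the members were tight as well: their median SD was 0.18, against 0.31 for all genes and 0.26 for genes detected on all arrays, as 32 of the 34 were.

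Ligation in deficient rats was the widest change of the series, with 40.5% of all genes passing the test, and 4 of the 34 proteasome genes did. Their median change was 0.01 and ran from −0.71 to 0.52, while the median of all genes was −0.04. Under median scaling the medians were 0.03 for the members and 0.23 for all genes, so the members' median lay above that of all genes in one scaling and below it in the other. Only 1 member changed by over 1.5-fold (2.94%), against 32.7% of all genes. For 24 of 34 members (70.6%) the 95% interval of the change lay wholly within 1.5-fold either way, and for 32 (94.1%) within 2-fold. Over all genes these shares were 24.7% and 64.9%. In sufficient rats ligation also changed 4 members, where 17.4% of all genes passed, and 26 of 34 members (76.5%) had intervals within 1.5-fold.

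Over all 14 comparisons, 12 of the 34 members passed in at least 1 (35.3%), while 5185 of the 9314 genes did (55.7%). The comparisons share arrays, so their counts are not independent. Scaling arrays by their median in place of quantile normalisation kept 2 of the 24 calls of members, those of Psmc6 with treatment and of Psmd9 with ligation in VAD VITA rats, and turned no direction. The 22 members that passed in none include Psmb5, Psmb6 and Psmb7, the 3 cutting subunits. Among the 34, the range between the lowest and highest group mean was smallest for Psmd7 of the lid, 10.98 to 11.11, and widest for Psmc6 of the base, 5.76 to 7.04.

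**Figure D2:**
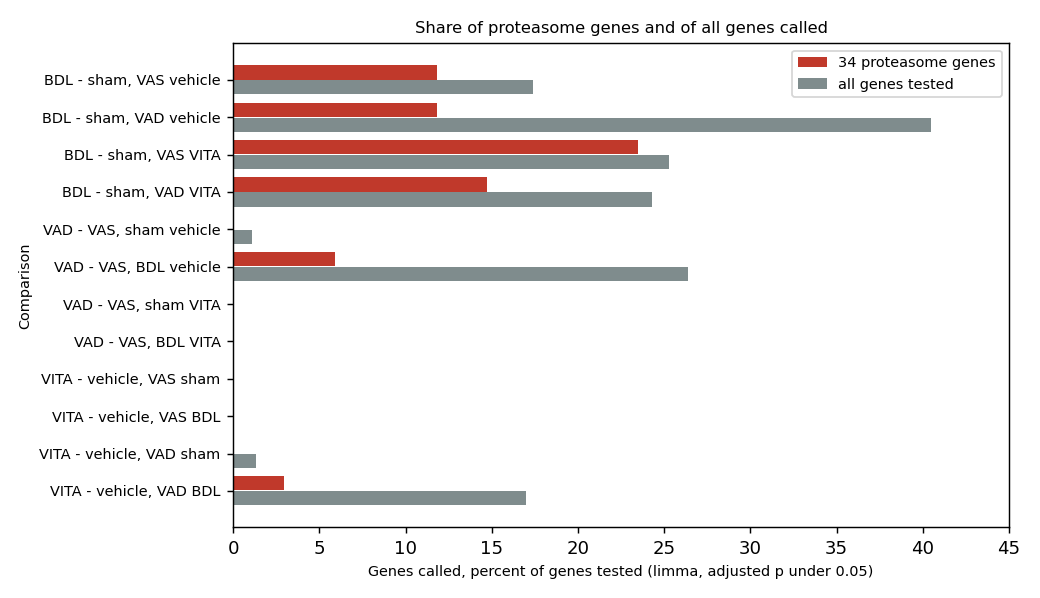
Share of the 34 proteasome genes (red) and of all 9314 genes (grey) that passed limma's adjusted p of 0.05, in percent (horizontal axis), for 12 comparisons of 2 groups (vertical axis). After ligation in VAD vehicle rats 11.8% of the proteasome genes passed, against 40.5% of all genes, and in VAS VITA rats 23.5% against 25.3%.

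**Figure D3:**
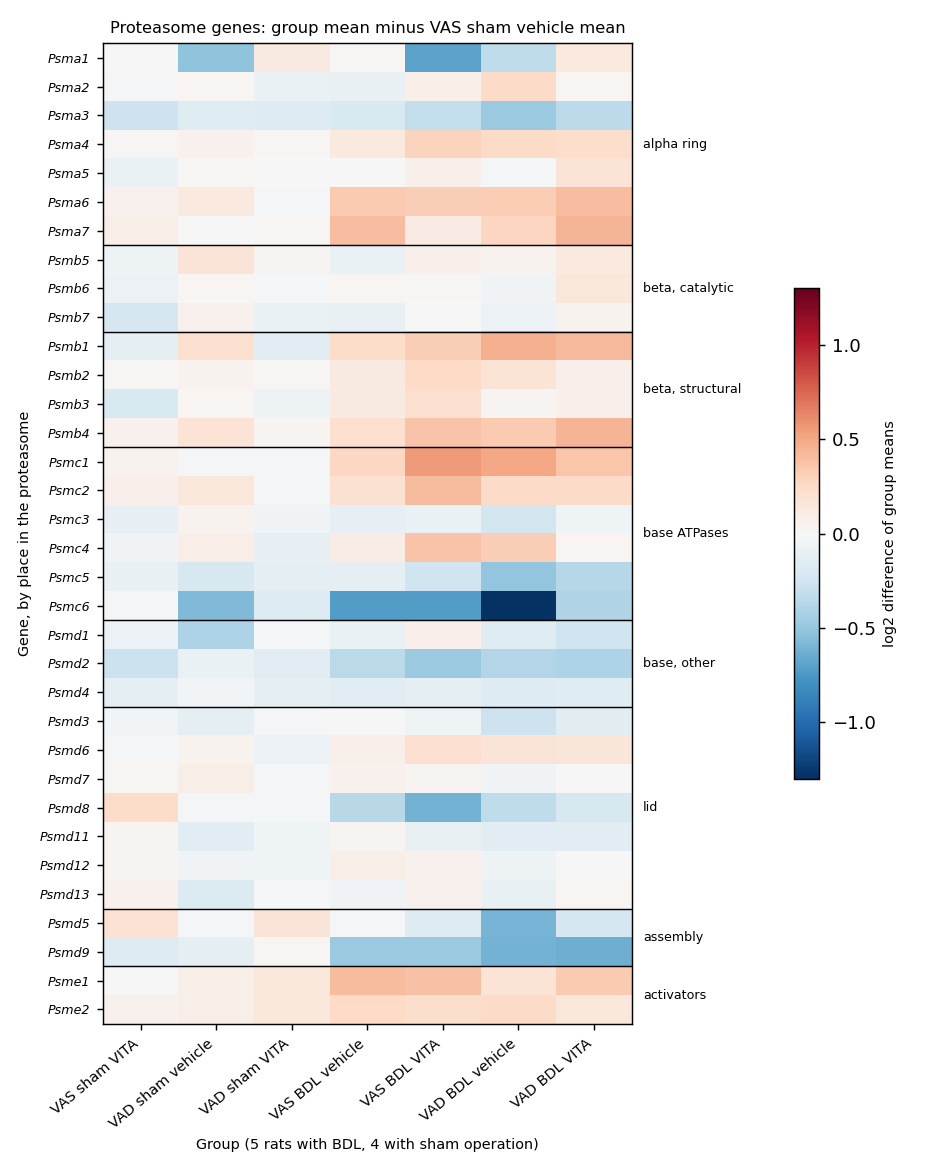
Difference of each group mean from VAS sham vehicle on the log2 scale (colour), for 34 proteasome genes (rows, by their place in the complex) and 7 groups (columns). Most cells are pale. Psmc6 and Psmd5 are lowest in VAD BDL vehicle livers, Psmd9 is lower in every ligated group, and Psma1 follows the share of slide 3 arrays in a group.

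The cutting subunits were measured precisely enough to bound their response. Psmb5, the chymotrypsin-like site, read 11.21, 11.17, 11.33 and 11.40 in VAS sham vehicle and 11.25, 11.07, 11.13, 11.11 and 11.39 in VAS BDL vehicle livers. In VAD sham vehicle it read 11.36, 11.20, 11.32 and 11.90, and in VAD BDL vehicle 11.21, 11.27, 11.34, 11.43 and 11.35. These groups overlapped on both diets. Its change with ligation was −0.09 (95% interval −0.36 to 0.19, adjusted p = 0.733) in sufficient rats and −0.12 (−0.40 to 0.15, adjusted p = 0.495) in deficient rats. Psmb6, the caspase-like site, ran from 10.99 to 11.24 in VAS sham vehicle, from 10.88 to 11.24 in VAS BDL vehicle, and from 10.79 to 11.24 in VAD BDL vehicle livers. Its change in deficient rats was −0.08 (−0.32 to 0.16, adjusted p = 0.635). Psmb7, the trypsin-like site, ran from 10.67 to 11.27 in VAD sham vehicle and from 10.57 to 10.99 in VAD BDL vehicle livers. Its change was −0.13 (−0.41 to 0.14, adjusted p = 0.457), so for each cutting subunit the interval left room for less than a 1.5-fold change in either direction.

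Of the noncatalytic subunits of the inner ring, Psmb1 and Psmb4 rose after ligation in treated rats on both diets, and Psmb3 passed on the VAS diet. Psmb1 read 11.98, 12.08, 11.98 and 12.23 in VAS sham VITA and 12.34, 12.44, 12.60, 12.63 and 12.58 in VAS BDL VITA livers. Every ligated liver lay above every sham liver, and the change was 0.45 (SE 0.12, adjusted p = 0.00776). In deficient treated rats Psmb1 read 11.98, 12.14, 11.92 and 12.21 in VAD sham VITA and 12.55, 12.36, 12.57, 12.63 and 12.98 in VAD BDL VITA livers. These groups did not overlap either, and Psmb1 rose by 0.56 (SE 0.12, adjusted p = 0.00104). Within slides 1, 2 and 3 it was 0.47, 0.57 and 0.77. Without slide 3 the VAS change was 0.38 (adjusted p = 0.0526). In vehicle rats the change of Psmb1 was 0.24 (adjusted p = 0.2) in sufficient and 0.25 (adjusted p = 0.104) in deficient rats. With slide as a block the latter was 0.26 and passed (adjusted p = 0.046). Whether treatment altered the change with ligation was not tested. Psmb1 means in VAD livers were 12.66 (vehicle) and 12.62 (VITA) after ligation, and 12.40 and 12.06 after sham operation. In VAS livers they were 12.44 and 12.52 after ligation, and 12.20 and 12.07 after sham operation.

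Psmb4 behaved alike in treated rats, at 0.31 (SE 0.11, adjusted p = 0.0384) in VAS and 0.41 (SE 0.11, adjusted p = 0.00715) in VAD livers after ligation. Its VAS call was lost with slide as a block (0.25, adjusted p = 0.0691), without slide 3 (adjusted p = 0.0818) and when any of VAS BDL VITA replicates 2, 3 and 4 or VAS sham VITA replicates 1, 2 and 3 was left out (adjusted p 0.051 to 0.149). Psmb3 rose by 0.40 (SE 0.11, adjusted p = 0.0062) in VAS VITA livers, but without slide 3 it was 0.28 (adjusted p = 0.16). In VAD VITA livers Psmb3 was at 0.13 (adjusted p = 0.413). In the 4 ligation comparisons the changes of Psmb2 were 0.12, 0.13, 0.25 and 0.05, none past the test. Ligation in VAS VITA rats changed 8 members in all, 6 higher and 2 lower, where 25.3% of all genes passed; the others were Psmc1, Psmc4, Psme1, Psmc6 and Psmd8. Without slide 3, with 2 VAS BDL VITA arrays left, only Psmc1 of these passed. Psmc6 fell by 0.71 (adjusted p = 0.0286), and with slide as a block it was at −0.60 (adjusted p = 0.0501); it was also lost when any of VAS BDL VITA replicates 3, 4 and 5 or VAS sham VITA replicates 1 and 3 was left out (adjusted p 0.0555 to 0.112). In VAD VITA rats 5 members passed, 4 higher and 1 lower, where 24.3% of all genes did; without slide 3 the number was 8.

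In the outer ring, Psma6 read 12.01, 11.96, 12.04 and 11.76 in VAS sham vehicle and 12.28, 12.34, 12.29, 12.23 and 12.27 in VAS BDL vehicle livers. All ligated livers were above all sham livers, and Psma6 rose by 0.34 (SE 0.12, adjusted p = 0.0419), but the call was lost when any 1 of the 9 arrays was left out (adjusted p 0.0508 to 0.154). In VAD VITA rats, whose groups overlapped, it rose by 0.42 (SE 0.12, adjusted p = 0.00747), and without slide 3 it was 0.31 (adjusted p = 0.0694). Psma7 was 0.40 higher after ligation in VAS vehicle rats with an adjusted p of 0.127, and passed with slide as a block (0.38, adjusted p = 0.0227). Psma5 ran from 10.70 to 10.86 in VAS sham vehicle and from 10.63 to 11.01 in VAS BDL vehicle livers, a change of −0.01 (95% interval −0.23 to 0.22, adjusted p = 0.975). Psma2, Psma3 and Psma4 passed in no comparison, and the interval of Psma1 reached from −0.72 to 1.12 in deficient rats.

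**Figure D4:**
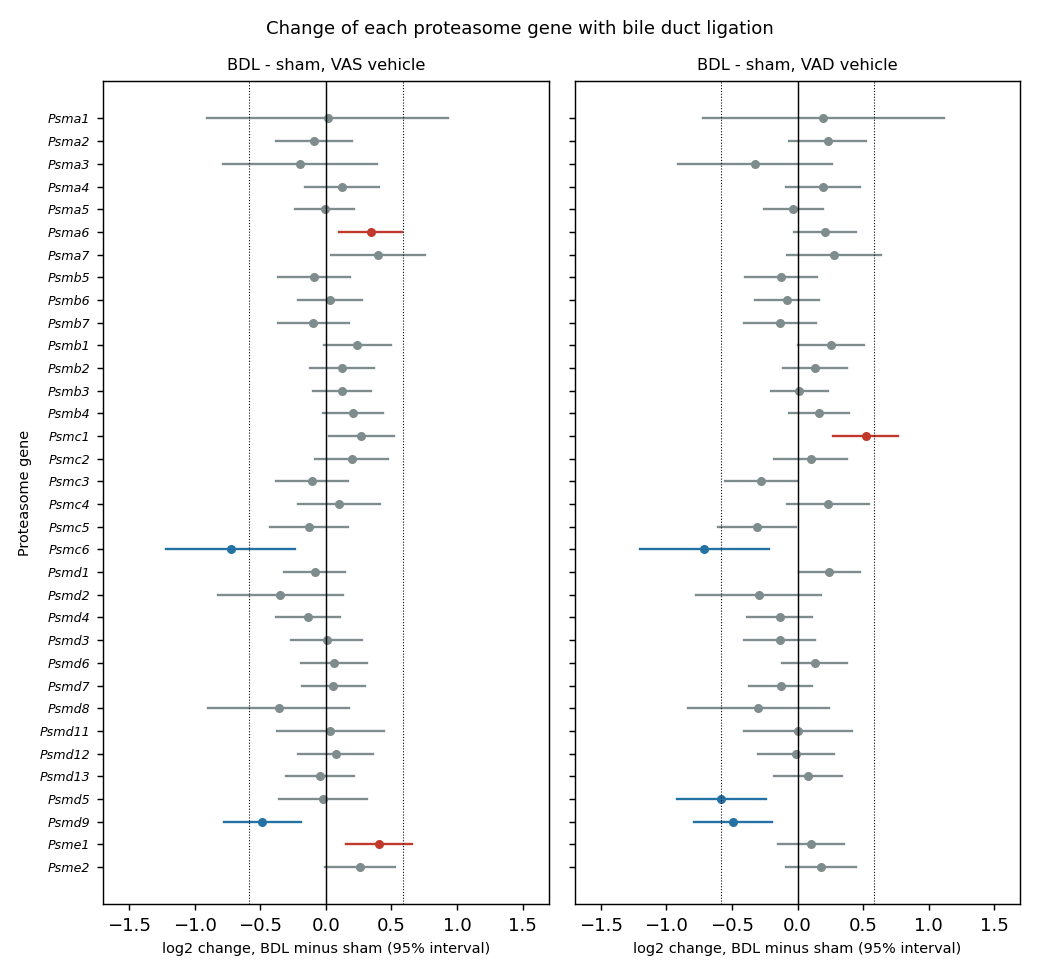
Log2 change with ligation (horizontal axis, points) and its 95% interval (lines) for 34 proteasome genes in VAS and VAD vehicle rats, with genes that rose in red, those that fell in blue and the rest in grey. Dotted lines mark 1.5-fold. Only Psmc6 in both panels lies past a dotted line, and the interval of Psma1 is the widest.

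Of the 6 ATPases of the base, 1 rose and 1 fell with ligation in deficient vehicle rats, where 40.5% of all genes passed. Neither call held under median scaling (limma adjusted p = 0.111 for Psmc1 and 0.437 for Psmc6). Psmc1 read 11.03, 10.90, 11.44 and 11.13 in VAD sham vehicle and 11.52, 11.56, 11.74, 11.60 and 11.80 in VAD BDL vehicle livers, without overlap. It rose by 0.52 (SE 0.12, adjusted p = 0.000769), and the difference was 0.55 within slide 1 and 0.42 within slide 3. In treated rats it rose by 0.51 (SE 0.12, adjusted p = 0.00201) on the VAS and by 0.38 (SE 0.12, adjusted p = 0.0203) on the VAD diet. The last call was lost without VAD BDL VITA replicate 1 (adjusted p = 0.0536) or without VAD sham VITA replicate 2 (adjusted p = 0.082) or 3 (adjusted p = 0.0579). In VAS vehicle livers its values were 11.08, 11.11, 11.09 and 11.29 against 11.43, 11.50, 11.40, 11.34 and 11.39 after ligation, a change of 0.27 (adjusted p = 0.134).

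Psmc6, an ATPase of the same ring, gave dim signals, with raw intensities of 133.5 to 282.7 where the arrays' medians were 108.2 to 145.3. It read 7.30, 7.41, 6.94 and 6.52 in VAS sham vehicle and 6.34, 6.43, 6.63, 6.62 and 5.58 in VAS BDL vehicle livers. Only VAS sham vehicle replicate 4 fell among the ligated livers, and Psmc6 fell by 0.72 (SE 0.24, adjusted p = 0.0343). In deficient rats it read 6.60, 6.84, 6.20 and 6.23 after sham operation and 6.0, 5.47, 5.80, 6.04 and 5.48 after ligation. These groups did not overlap, and Psmc6 fell by 0.71 (SE 0.24, adjusted p = 0.0183). The VAS call was lost without VAS BDL vehicle replicate 1 or 5 (adjusted p = 0.0562 and 0.13) or VAS sham vehicle replicate 1, 2 or 3 (adjusted p = 0.104, 0.128 and 0.055). The VAD call was lost without VAD sham vehicle replicate 2 (−0.59, adjusted p = 0.076) and in the authors' deposited value table (−0.16, adjusted p = 0.0796).

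Psmc4 read 10.73, 10.66, 11.08 and 10.98 in VAD sham vehicle and 10.78, 10.91, 11.04, 11.40 and 11.33 in VAD BDL vehicle livers, and the groups overlapped (0.23, adjusted p = 0.243). In VAS VITA rats it rose by 0.41 after ligation (SE 0.15, adjusted p = 0.045), a call lost with slide as a block (0.32, adjusted p = 0.0568) and without slide 3 (0.17, adjusted p = 0.373). Left out one at a time, VAS BDL VITA replicates 3, 4 and 5 and VAS sham VITA replicates 1, 2 and 3 each ended it as well (adjusted p 0.0616 to 0.149). Psmc2 and Psmc3 passed in no comparison.

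In the rest of the cap few genes moved. Psmd4, a receptor for ubiquitin chains, read 10.15, 10.10, 10.23 and 10.35 in VAD sham vehicle and 9.71, 10.31, 10.18, 10.04 and 10.10 in VAD BDL vehicle livers. The groups overlapped, and the change was −0.14 (95% interval −0.38 to 0.11, adjusted p = 0.39). Psmd2 of the base was at −0.30 there (adjusted p = 0.334), and with slide as a block it fell by 0.41 (SE 0.16, adjusted p = 0.0392). Psmd1, its partner, was at 0.24 (adjusted p = 0.0934). Of the 7 lid genes tested, Psmd8 alone passed in any comparison: it fell by 0.85 after ligation in VAS VITA livers (SE 0.26, adjusted p = 0.0172). It was a dim probe, detected on 31 arrays, and was at −0.32 without slide 3 (adjusted p = 0.556). The call was also lost without VAS BDL VITA replicate 4 (adjusted p = 0.061) or 5 (adjusted p = 0.0754) or VAS sham VITA replicate 1 (adjusted p = 0.069). Over the 7 lid genes the changes with ligation in deficient rats ran from −0.30 to 0.13.

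**Figure D5:**
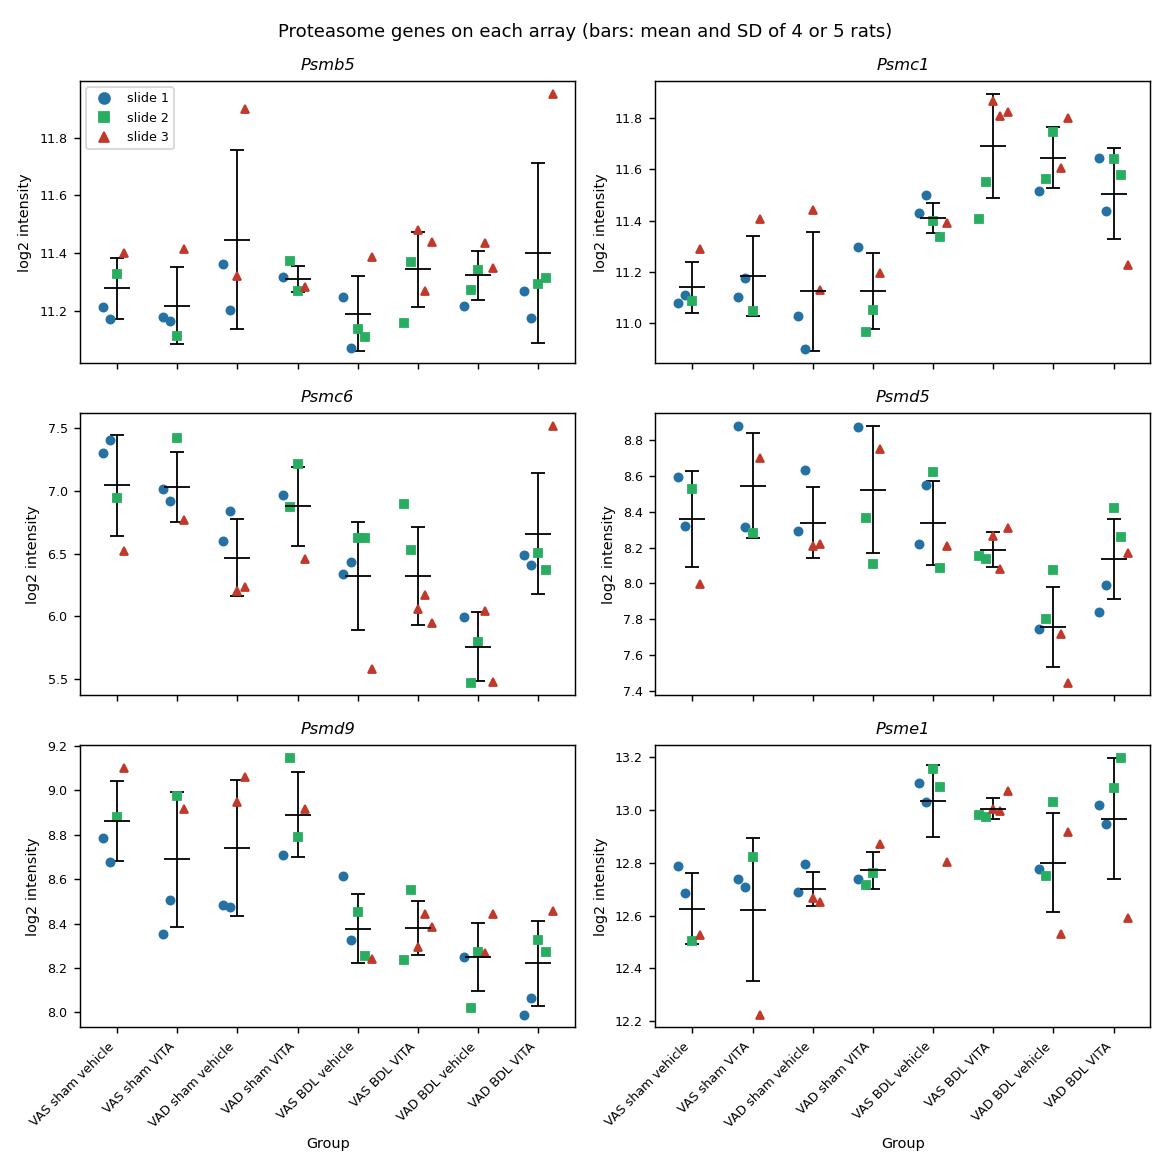
Log2 intensity on each array (vertical axis) of Psmb5, Psmc1, Psmc6, Psmd5, Psmd9 and Psme1 in the 8 groups (horizontal axis), with slide shown by colour and shape and bars for the mean and SD of 4 or 5 rats. Psmd9 is lower in ligated than in sham livers of 3 of the 4 pairs without overlap, and Psmd5 is lowest in VAD BDL vehicle livers.

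Of the 2 members that assist assembly of the base, Psmd9 fell after ligation in 3 of the 4 ligation comparisons and Psmd5 in 1. They are known from human cells as chaperones that hold the ATPases before the cap is complete, and are no part of the finished proteasome. Psmd9 read 8.79, 8.68, 8.88 and 9.10 in VAS sham vehicle and 8.61, 8.32, 8.45, 8.25 and 8.24 in VAS BDL vehicle livers. In VAD rats it read 8.48, 8.47, 8.95 and 9.06 against 8.25, 8.02, 8.27, 8.27 and 8.44. On both diets every ligated liver lay below every sham liver. Psmd9 fell by 0.48 (SE 0.15, adjusted p = 0.0183) on the VAS and by 0.49 (SE 0.15, adjusted p = 0.00696) on the VAD diet. In treated VAD rats it fell by 0.67 (SE 0.15, adjusted p = 0.00079), with differences of −0.68, −0.67 and −0.46 within slides 1, 2 and 3. In treated VAS rats it was at −0.31 (adjusted p = 0.122), and with slide as a block it fell by 0.44 (adjusted p = 0.00932). The VAS vehicle call was lost without VAS sham vehicle replicate 4 (−0.40, adjusted p = 0.0835) and without slide 3 (−0.37, adjusted p = 0.0954), and the VAD vehicle call without slide 3 (−0.30, adjusted p = 0.207).

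Psmd5 was lower in the deficient ligated livers than in both of their comparison groups. It read 7.74, 7.80, 8.08, 7.72 and 7.45 in VAD BDL vehicle, 8.29, 8.63, 8.21 and 8.22 in VAD sham vehicle, and 8.22, 8.55, 8.62, 8.09 and 8.21 in VAS BDL vehicle livers. The 5 deficient ligated livers lay below all livers of the other 2 groups. Psmd5 fell by 0.58 with ligation in deficient rats (SE 0.17, adjusted p = 0.00517), and it was 0.58 lower with deficiency among ligated livers (log2 −0.58, SE 0.16, adjusted p = 0.00495). Both comparisons use the same VAD BDL vehicle arrays. Within slides 1, 2 and 3 the diet difference was −0.64, −0.41 and −0.63, and it passed with each array left out. Without slide 3 the adjusted p was 0.0511 for ligation and 0.0607 for diet. In sufficient rats the change of Psmd5 with ligation was −0.02 (95% interval −0.36 to 0.32, adjusted p = 0.952). In treated rats it was −0.36 (adjusted p = 0.114) on the VAS and −0.39 (adjusted p = 0.087) on the VAD diet. The difference between the ligation effects of the 2 diets was −0.56 (95% interval −1.04 to −0.08), which did not pass (adjusted p = 0.154).

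Deficiency among ligated vehicle rats changed 2 of the 34 members, both lower, where 26.4% of all genes passed. The second was Psmc5, an ATPase of the base. It read 7.96, 8.49, 8.66, 8.73 and 8.66 in VAD BDL vehicle and 8.76, 9.10, 8.99, 8.70 and 8.90 in VAS BDL vehicle livers. The groups overlapped in a single array, VAD BDL vehicle replicate 4, and Psmc5 fell by 0.39 (SE 0.14, adjusted p = 0.0342). Without VAD BDL vehicle replicate 1, the lowest array, the change was −0.25 (adjusted p = 0.174). The call was also lost without VAD BDL vehicle replicate 2 (adjusted p = 0.0549) or VAS BDL vehicle replicate 2 (adjusted p = 0.0967), 3 (adjusted p = 0.0765) or 5 (adjusted p = 0.0546). Within slides the difference was −0.97, −0.26 and −0.20. With slide as a block, Psma2 also passed and rose by 0.29 (SE 0.10, adjusted p = 0.0202).

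Psmc6 was at −0.56 in this comparison (95% interval −1.03 to −0.10, adjusted p = 0.066) and did not pass. Without slide 3 it fell by 0.75 and passed (adjusted p = 0.000913), and within slides 1, 2 and 3 the difference was −0.39, −0.99 and 0.18.

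The promoters of Psmc5 and Psmd5 are shown because these 2 members passed the test of diet in ligated livers. The sequences are from RefSeq on build GRCr8, from 250 bases before to 50 after the gene start, 5′ to 3′ on the gene's strand. Psmc5 lies at chr10:91687303-91687602 on the plus strand and Psmd5 at chr3:38548441-38548740 on the minus strand. Capitals mark matches, on either strand, to TGACNNNGC or TGAGNNNGC, the core of the antioxidant response element bound by Nfe2l1 and Nfe2l2, or to CCAAT, the box bound by factor NF-Y.
Psmc5: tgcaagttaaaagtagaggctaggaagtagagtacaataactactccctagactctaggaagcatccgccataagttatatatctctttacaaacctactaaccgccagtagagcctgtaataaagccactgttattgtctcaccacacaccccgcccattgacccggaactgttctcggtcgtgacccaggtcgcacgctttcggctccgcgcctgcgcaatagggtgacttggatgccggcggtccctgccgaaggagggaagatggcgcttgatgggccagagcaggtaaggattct
Psmd5: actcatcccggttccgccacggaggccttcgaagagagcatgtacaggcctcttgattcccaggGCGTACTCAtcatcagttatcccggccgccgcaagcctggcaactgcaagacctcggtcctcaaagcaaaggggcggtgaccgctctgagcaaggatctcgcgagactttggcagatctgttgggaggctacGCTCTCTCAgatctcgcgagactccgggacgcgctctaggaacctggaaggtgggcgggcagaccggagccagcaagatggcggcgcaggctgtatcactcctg
The Psmd5 window held 2 matches to TGAGNNNGC on the opposite strand, at bases 65 to 73 and 197 to 205, and the Psmc5 window held no match to any of the 3 motifs. Of the 31 members with a promoter entry, Psmc3ip set aside and Psmd5 and Psmd9 included, 7 held TGACNNNGC (22.6%), 8 held TGAGNNNGC (25.8%) and 15 held CCAAT (48.4%). Over all 33469 promoters of the same length the shares were 12.1%, 17.2% and 37.5%. Psma7, Psmd6 and Psmd12 had no entry. A match of letters is a description of the window.

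Of the 2 genes of the interferon-raised cap, Psme1 rose with ligation in sufficient rats. It read 12.79, 12.69, 12.50 and 12.53 in VAS sham vehicle and 13.10, 13.03, 13.15, 13.09 and 12.80 in VAS BDL vehicle livers, without overlap. Psme1 rose by 0.41 (SE 0.12, adjusted p = 0.0188), a call lost without VAS sham vehicle replicate 3 (0.37, adjusted p = 0.07) or 4 (0.37, adjusted p = 0.061). In deficient rats it read 12.69, 12.80, 12.67 and 12.65 against 12.78, 12.75, 13.03, 12.53 and 12.91 after ligation. These groups overlapped, with a change of 0.10 (95% interval −0.15 to 0.35, adjusted p = 0.556). In VAS VITA rats Psme1 rose by 0.38 (SE 0.12, adjusted p = 0.0217), and without VAS sham VITA replicate 4 it was 0.25 (adjusted p = 0.136), without slide 3 0.22 (adjusted p = 0.234). Its partner Psme2 read 9.61, 9.67, 9.43 and 9.30 in VAS sham vehicle and 9.68, 9.89, 9.69, 9.95 and 9.60 in VAS BDL vehicle livers, a change of 0.26 (adjusted p = 0.189).

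The immunoproteasome genes are not among the 34. In sufficient vehicle rats all 3 rose with ligation: Psmb8 by 1.01 (SE 0.22, adjusted p = 0.00123), Psmb9 by 1.66 (SE 0.48, adjusted p = 0.0142) and Psmb10 by 0.84 (SE 0.18, adjusted p = 0.000752). Without VAS sham vehicle replicate 4, Psmb9 was at 1.28 (adjusted p = 0.0892). In deficient vehicle rats Psmb10 rose by 0.61 (SE 0.18, adjusted p = 0.00537; 0.54 and adjusted p = 0.0548 under median scaling), while Psmb8 was at 0.28 (adjusted p = 0.339) and Psmb9 at 0.85 (adjusted p = 0.166). The diet difference of these ligation effects did not pass for any of the 3 (adjusted p = 0.162, 0.56 and 0.683). Of 12 interferon-stimulated genes tested, 5 rose and 1 fell with ligation in sufficient vehicle rats, where 17.4% of all genes passed. In deficient vehicle rats 2 rose, where 40.5% of all genes passed.

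Vitamin A treatment changed 1 member. Psmc6 read 6.49, 6.41, 6.50, 6.37 and 7.52 in VAD BDL VITA livers and, as given above, at most 6.04 in VAD BDL vehicle livers, so the groups did not overlap. It rose by 0.90, or 1.87-fold (SE 0.23, adjusted p = 0.0047), where 17% of all genes passed. The highest value came from VAD BDL VITA replicate 5, the array that stood apart. Without it Psmc6 still rose, by 0.69 (adjusted p = 0.0273). Within slides the differences were 0.45, 0.81 and 1.76, and the call held in each of 10 other settings and with each array left out, with 0.23 in the authors' deposited value table as the smallest change. Psmd5 was 0.38 higher with treatment (95% interval 0.06 to 0.70, adjusted p = 0.0961), which did not pass.

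The other treatment and diet comparisons changed no member by limma's test. Treatment in VAD sham livers gave 0 members, where 1.3% of all genes passed; at an unadjusted p under 0.05 it gave 2 members and 11.4% of all genes. Treatment in VAS sham livers gave 0 members and 0.0215% of all genes, and at the unadjusted p 0 members and 3.73% of genes. In VAS BDL livers treatment gave 0 members and 0% of all genes, and at the unadjusted p 1 member and 5.08% of genes. Deficiency in sham vehicle livers gave 0 members and 1.11% of all genes, and at the unadjusted p 2 members and 11.2% of genes. Among ligated VITA livers deficiency gave 0 members and 0.0322% of all genes, and at the unadjusted p 2 members and 12.4% of genes. Among sham VITA livers it gave 0 members and 0% of all genes, and at the unadjusted p 0 members and 3.67% of genes.

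Neither test of a difference between effects changed a member. The test of whether ligation acted differently on the 2 diets gave 0 members, while 7.92% of all genes passed, and at the unadjusted p 1 member and 20.5% of genes. The test of whether treatment acted differently on the 2 diets after ligation gave 0 members, while 13.4% of all genes passed, and at the unadjusted p 5 members and 26.8% of genes. For Psmc6 the latter difference was 0.90 (95% interval 0.25 to 1.56, adjusted p = 0.0582). For Psmc1 it was −0.42 (95% interval −0.75 to −0.09, adjusted p = 0.0822).

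Of 10 genes tested that build or bind the proteasome, 2 fell with ligation in sufficient vehicle rats, where 17.4% of all genes passed. In deficient vehicle rats 1 rose and 1 fell, where 40.5% of all genes passed. Psmg1, a chaperone for the outer ring, fell by 0.63 (SE 0.13, adjusted p = 0.000439) in sufficient and by 0.75 (SE 0.13, adjusted p = 1.12e-05) in deficient rats. Both Psmg1 calls held with each array left out and in 10 other settings. Usp14, which trims ubiquitin at the cap, rose by 0.41 in deficient rats (SE 0.13, adjusted p = 0.0112). Pomp, which matures the inner ring, was at −0.33 there (adjusted p = 0.0511).

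Of 10 genes tested in the Nfe2l1 pathway, 1 rose and 3 fell with ligation in deficient vehicle rats, where 40.5% of all genes passed. With deficiency among ligated vehicle livers 3 fell, where 26.4% of all genes passed. Nfe2l1 itself was at −0.06 (SE 0.15, adjusted p = 0.796) with ligation in deficient rats. Nfe2l2, its relative that answers oxidative stress, rose by 0.78 (SE 0.21, adjusted p = 0.00364). Keap1, the protein that holds Nfe2l2 back, fell by 0.72 (SE 0.20, adjusted p = 0.00351), but under median scaling it was at −0.24 (adjusted p = 0.461). Sel1l, a partner of the enzyme complex that tags faulty endoplasmic reticulum proteins, fell by 1.26 (SE 0.16, adjusted p = 7.94e-08). Of 14 genes that supply ubiquitin, 1 rose and 2 fell with ligation in deficient vehicle rats, where 40.5% of all genes passed. Ubb, a ubiquitin gene, rose by 0.36 (SE 0.12, adjusted p = 0.018). The call ended when VAD sham vehicle replicate 4 (0.33, adjusted p = 0.052) or slide 3 (0.34, adjusted p = 0.0547) was left out. Under median scaling Ubb was at 0.18 (limma adjusted p = 0.441), and with only the groups compared the adjusted p was 0.0564.

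Cell type markers moved in the same livers. With ligation in vehicle rats 4 of 9 hepatocyte markers fell in deficient rats, where 40.5% of all genes passed. In sufficient rats 2 of 9 fell, where 17.4% passed, and no hepatocyte marker rose on either diet. Among deficient rats 4 of 5 macrophage markers, 5 of 5 cholangiocyte markers, 6 of 6 stellate cell markers and 7 of 8 proliferation markers rose. Of 7 lymphocyte markers 2 rose and 1 fell there. In sufficient rats 4 of 5 macrophage markers rose and 1 fell, and 2 of 7 lymphocyte markers rose. There 3 of 5 cholangiocyte, 3 of 6 stellate cell and 6 of 8 proliferation markers rose as well. The summed macrophage markers lay between 11.28 and 11.95 in VAD sham vehicle and between 13.84 and 14.46 in VAD BDL vehicle livers. Summed cholangiocyte markers lay between 8.59 and 9.52 and between 11.92 and 12.56. In sufficient rats the macrophage sum lay between 11.12 and 11.22 after sham operation and between 12.03 and 12.65 after ligation, and the cholangiocyte sum between 8.20 and 9.21 and between 10.02 and 10.69. With deficiency among ligated vehicle rats, where Psmd5 and Psmc5 fell, 4 of 5 macrophage, 5 of 5 cholangiocyte and 6 of 6 stellate cell markers rose and 3 of 9 hepatocyte markers fell. In that comparison 4 of 8 proliferation markers rose. Of 7 lymphocyte markers 2 rose and 3 fell there, where 26.4% of all genes passed. With treatment of deficient ligated rats, where Psmc6 rose, 3 of 9 hepatocyte markers rose, and 4 of 5 macrophage, 2 of 5 cholangiocyte and 6 of 6 stellate cell markers fell. Of 8 proliferation markers 3 fell with treatment. Of 7 lymphocyte markers 1 rose and 2 fell with treatment, where 17% of all genes passed. The part of these cells in the changes of the members was not tested.

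Correlations among members within groups were low in general. Over 36 arrays, with group and slide means removed (26 residual degrees of freedom), the 561 pairs of members had a median correlation of 0.12, and 4.63% of pairs were above 0.5. For all pairs of the 9314 genes the median was 0.00 and 1.32% were above 0.5. These are descriptions, since all pairs share arrays and normalisation. The closest pairs were Psma4 with Psmc2 at 0.68, Psma3 with Psmc6 at 0.67, Psmb1 with Psmb5 at 0.67 and Psmc4 with Psmd3 at 0.67, while Psme1 and Psme2 had 0.61. The lowest were Psmc6 with Psmd3 at −0.67, with Psmc1 at −0.58 and with Psmc4 at −0.55. Psma3 and Psmc6 had dim probes. With group means alone removed, Psma1 with Psma7 had 0.85, and with slide removed as well 0.59.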

How the data were processed

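Liver RNA of 36 rats was measured on Illumina RatRef bead arrays, 3 slides with 12 arrays each. Per the labels' protocols, total RNA was extracted with TriReagent and turned into biotin-labelled cRNA. The authors deposited an intensity for each of 22523 probes per array, linear and not normalised, and a detection p-value beside each. They also deposited a table of processed linear intensity, used as an alternative; how it was made, and the image processing, are not stated in the sources used.

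Levels and tests come from limma 3.58.1 in R 4.3.3. Python 3.11.15, pandas 2.3.3 and matplotlib 3.10.9 made tables and figures. The neqc function corrected background (offset 16, background estimated from the detection p) and quantile normalised. Probes with a detection p under 0.01 on at least 4 arrays were kept, 9545 in all. Each of 9314 genes was represented by its brightest probe on average. A linear model of the 8 groups, with 28 residual degrees of freedom, gave 14 comparisons, and p-values were adjusted by Benjamini-Hochberg over all genes. The fit was tested on simulated data. Signal over background and the number of arrays limit the precision.

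Alternatives were offset 50, median scaling, the authors' table, no filter, detection on at least 18 arrays, each probe separately, a slide block, a replicate block, only the groups compared, no slide 3, and each array left out. The slide test and the correlations with slide removed were added after seeing the data. Replicate numbers did not pair the samples: no comparison of 12 had all same-numbered pairs over 0.1 (r from −0.19 to 0.41). Panel genes were the cutting subunits, Psma5, Psmc4, Psmd4, Psme1, Psme2 and up to 3 called members per direction in 4 main comparisons; Psmb1 was added after its values were seen. Of 35 members, 32 had a promoter in the RefSeq table. The members and lists were chosen with earlier results of these data known.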

Additional observations from a re-analysis of the deposited data

Results flagged for a closer look

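In 120 sets of 4 or 5 arrays, each a gene given per array or the mean of the members in 1 group, 7 had an array far from the rest of its group by Dixon's criterion. Chance flags about 1 in 20 such sets. Of the 7, 3 came from VAD BDL VITA replicate 5, the array that correlated least with its own group. There Psmb5 was at 11.95, against 11.17 to 11.31 in the other 4 rats, Psme2 at 9.14 against 9.67 to 9.87, and Psmc6 at 7.52 against 6.37 to 6.50. VAS BDL vehicle replicate 5 gave 2: Psmb6 at 10.88, where the other rats had 11.14 to 11.24, and Psmc6 at 5.58, where they had 6.34 to 6.63. Both of these arrays lie on slide 3. Psma5 was at 10.69 in VAD BDL VITA replicate 2, with 11.03 to 11.08 in the others, and Psmc1 at 11.29 in VAS sham vehicle replicate 4, with 11.08 to 11.11. The causes were not tested.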

How the results depend on the processing

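The number of members that passed was counted over 14 comparisons and 10 settings. Of these 140 counts, 125 stayed within 1.5 times the reported number, 5 rose beyond it and 10 fell below. In 8 of the 14 comparisons no member had passed, so those counts could only stay at 0 or rise. A count can also hold while its genes change. Without slide 3, Psmb4 and Psmc1 passed for ligation in VAS vehicle rats and Psma6 and Psmd9 no longer did. Median scaling had the widest effect: it kept 2 of the 24 calls of members, Psmc6 with treatment in VAD BDL livers and Psmd9 with ligation in VAD VITA livers. The counts became 0 for ligation in VAS vehicle (2 higher and 2 lower before), 1 in VAD vehicle (Psmd13, higher, where 1 rose and 3 fell before), 1 for diet after ligation (Psmd3, lower), 0 in VAS VITA and 1 in VAD VITA rats (lower, where 4 rose and 1 fell before). It moved the median of all genes to 0.15 and 0.23 for ligation in VAS and VAD vehicle rats, and relative to it Psmc1 in VAD rats was at 0.19, Psmd5 at −0.40, and Psma6 and Psme1 in VAS rats at 0.11 and 0.14. Among all genes that passed, the higher share moved from 60.4% to 82.1%, from 51.4% to 75.8% and, in VAS VITA rats, from 57.2% to 76.9%. For treatment in VAD BDL livers it moved from 45.1% to 34.6%, for treatment in VAD sham livers from 57% to 84.8%, and for deficiency in sham livers from 62.1% to 39%. For the diet by ligation difference it moved from 53.7% to 71%, and for the treatment by diet difference from 42.8% to 29.1%. Ngly1 and Rad23b, which fell with ligation in VAD vehicle rats (log2 −0.36 and −0.40), were at 0.03 and 0.11 under it. The cause was not tested.

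With slide as a block 7 members passed for ligation in VAD vehicle rats. Without slide 3 it was 1 for ligation in VAS VITA and 8 in VAD VITA rats. That setting kept 11 of the 24 calls of members. Fits to only the groups compared, with fewer samples, kept 13 of the 24 calls. They gave 2 for ligation in VAS vehicle, 1 for diet after ligation, 3 in VAS VITA and 2 in VAD VITA rats. For the treatment by diet difference, offset 50 gave 1, the authors' deposited value table gave 2, and the replicate block, which pairs no samples here, gave 1; with that block ligation in VAD vehicle rats had 6. Leaving out each array gave 1 to 3 for ligation in VAS vehicle, 1 to 3 for diet after ligation, 4 to 9 in VAS VITA, 4 to 5 in VAD VITA, 3 to 5 in VAD vehicle and 0 to 3 for the treatment by diet difference. Psmc6, Psma3 and Psmd8 were dim, which limits their precision. The slide effect of Psma1 was −1.20, −1.25 and −0.81 with offset 50, median scaling and the authors' deposited value table.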
